A study of Bos taurus with 6 samples.

Results

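The miRNAs of the DLK1-DIO3 locus were examined in liver small RNA libraries of Wye Angus steers, with 3 grass-fed and 3 grain-fed animals and 1 library per animal. The grass-fed steers received alfalfa, hay or pasture and were 21 months old, and the grain-fed steers received corn silage, shelled corn, soybean and minerals and were 14 months old. Both groups were sampled at market weight from a herd closed to outside breeding, so diet and age cannot be told apart. Members were chosen by name, as every mature cattle miRNA that carries 1 of 42 numbers of the locus with any letter or arm suffix, and 57 of the 1030 mature miRNAs listed per library met this rule. Of the 42 numbers, 40 had an entry, and miR-337 and miR-889 had none.

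DLK1-DIO3 is an imprinted locus, in which the parental origin of a chromosome decides which copy of a gene is transcribed. The father's copy gives the protein-coding genes DLK1, RTL1 and DIO3, and the mother's copy gives the long noncoding RNAs MEG3 and MEG8 and a long row of miRNA hairpins. The miRNAs are best known from placenta, embryo and brain, and their level falls in most adult organs, the liver among them. The locus is familiar to animal breeders from the callipyge sheep, whose muscle growth follows a change between its genes.

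By precursor name, 55 of 55 member precursors had an entry in RefSeq for ARS-UCD2.0. The deposited counts were made on the older ARS-UCD1.2, so no coordinates are given. In that annotation 56 of the 57 members lie in 1 stretch of chromosome 21 that holds 58 miRNA genes. The exception was bta-miR-544b, whose precursors are on other chromosomes and which had no count in any library. The stretch opens with MIR493 and closes with MIR656, beyond MEG3 on the side away from DLK1. In it, 5 miRNA genes (MIR431, MIR433, MIR127, MIR432 and MIR136) lie within RTL1, whose antisense transcript carries them, and MIR370 follows within MEG8. These, with MIR493 and MIR665, were taken as the RTL1 antisense group, with 8 members. The other 48 members, from miR-379 to miR-656, form the MIRG group, named after the noncoding host transcript known in mice. The hairpins MIR299 and MIR299-2 overlap each other, as do MIR409A and MIR409B, so reads of such a pair may not have been separable.

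Members were few in number of reads and the depth of the libraries decided which could be compared. Counted as the largest value over the precursors of each mature miRNA, the grass-fed libraries held 3824592 to 6133960 miRNA counts, and the grain-fed libraries 464875 to 892929. The members together held 11234, 10393 and 9774 counts in grass-fed replicates 1, 2 and 3. In grain-fed replicates 1, 2 and 3 they held 2111, 1693 and 1406 counts. As a share of all miRNA counts the members made up 0.221%, 0.169% and 0.256% of the grass-fed libraries, against 0.236%, 0.267% and 0.302% of the grain-fed ones, so that the shares overlapped between the diets.

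Levels are given in CPM, which are counts brought to a common library total after scaling by the trimmed mean of M-values (TMM), a method that sets the bulk of miRNAs to the same level in each library. On this scale the summed level of the members was 2365, 2449 and 2565 CPM in grass-fed replicates 1, 2 and 3. It was 2056, 2397 and 2494 CPM in grain-fed replicates 1, 2 and 3. The means were 2460 ± 100.5 CPM (SD, n = 3) and 2316 ± 230.1 CPM (SD, n = 3), a ratio of 1.06, and the ranges overlapped. With libraries scaled by their total counts alone the ratio was 0.802, so the direction of the summed level depended on the scaling. The liver samples hold several cell types, and fewer cells of a type cannot be told apart from less RNA per cell.

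Of the 57 members, 38 exceeded 2 counts in 2 or more libraries and were tested. A further 13 had some counts but did not reach this limit, with at most 11 counts over all libraries, and 6 had none in any library. The 6 were bta-miR-1193, bta-miR-329b, bta-miR-409b, bta-miR-541, bta-miR-544a and bta-miR-544b. With 3 counts as the limit that a 0 allows, a member without counts could have reached 0.632 to 0.787 CPM in a grass-fed library and 2.92 to 5.32 CPM in a grain-fed library, for counting error only.

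The number of members above 2 counts was 39, 38 and 37 in the grass-fed libraries, against 27, 26 and 22 in the grain-fed ones. This gap went with depth. At the 464875 counts of the smallest library the hypergeometric formula gave 20.4, 18.8 and 21.4 expected members for the grass-fed libraries. It gave 21.8 to 22.6 for the grain-fed libraries. At an equal TMM-scaled depth the formula gave 22.2 to 22.8 for the grass-fed libraries, against at most 23.5 for the grain-fed ones. On total counts the grass-fed numbers were thus a little lower, and on the TMM scale the ranges overlapped.

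**Figure D1:**
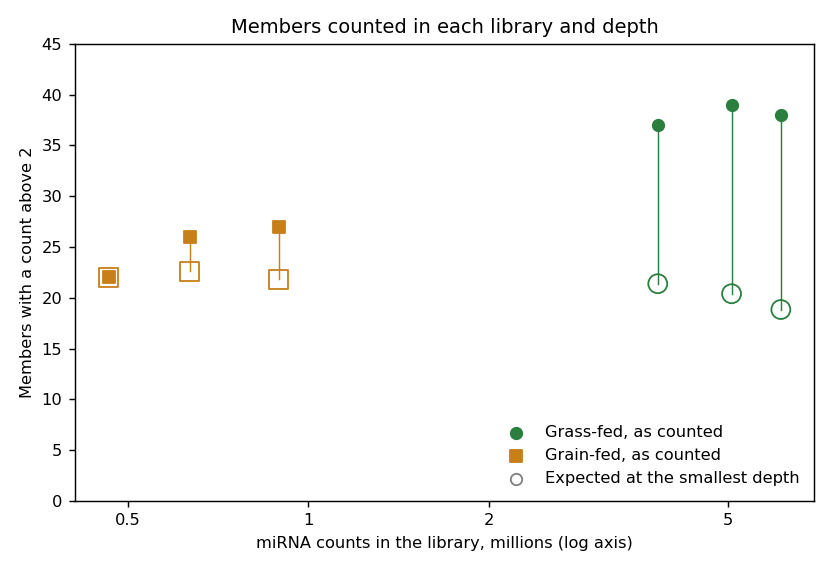
Members with a count above 2 (vertical axis) against the miRNA counts of each library (log axis), filled for the libraries as counted and open for the number expected at the depth of the smallest library (grain-fed replicate 3, whose marks coincide). As counted, the grass-fed libraries had 37 to 39 members and the grain-fed libraries 22 to 27, and the numbers expected at an equal total lay between 18.8 and 22.6.

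A few hairpins held most of the reads of the locus, and on the TMM scale these were at like levels in both diets. bta-miR-127, bta-miR-411a and bta-miR-379 took 60.0% to 71.0% of the member counts in the grass-fed and 70.3% to 77.5% in the grain-fed libraries. bta-miR-127 ranked first in each of the 6 libraries, and bta-miR-381 and bta-miR-154c ranked 4 and 5 in each.

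bta-miR-127, carried by the transcript antisense to RTL1 and known to cleave the RTL1 messenger, was at 822, 847 and 934 CPM in grass-fed replicates 1, 2 and 3. In grain-fed replicates 1, 2 and 3 it was at 840, 950.0 and 922 CPM. On the TMM scale the 6 values formed a narrow band without a division by diet. The log2 fold change of grass-fed over grain-fed liver was -0.06 (95% interval -0.48 to 0.37, FDR = 0.883, edgeR quasi-likelihood test). With total counts alone it was -0.46 (FDR = 0.243, edgeR), so the likeness of the diets depended on the scaling. Of all members bta-miR-127 had the most reads, and its interval on the TMM scale leaves out a doubling in either direction.

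bta-miR-411a was at 464, 334 and 502 CPM in the grass-fed libraries and at 321, 398 and 608 CPM in the grain-fed libraries. bta-miR-379, which in mouse liver responds to glucocorticoids, was at 353, 289 and 386 CPM against 283, 420.5 and 401 CPM. For both the grain-fed values spread more widely than the grass-fed values and covered the whole of that range. Their log2 fold changes were -0.02 (interval -0.61 to 0.57, FDR = 0.953, edgeR) and -0.10 (interval -0.61 to 0.41, FDR = 0.842, edgeR). With total counts alone they were -0.40 (FDR = 0.524, edgeR) and -0.48 (FDR = 0.320, edgeR).

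bta-miR-381 was at 200.4, 267 and 163 CPM in grass-fed and at 171, 212 and 163 CPM in grain-fed libraries, with a log2 fold change of 0.20 (interval -0.34 to 0.75, FDR = 0.704, edgeR). The sign of the log2 fold change of these 4 leading members turned under at least 1 other scaling, so no direction is given for them.

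**Figure D2:**
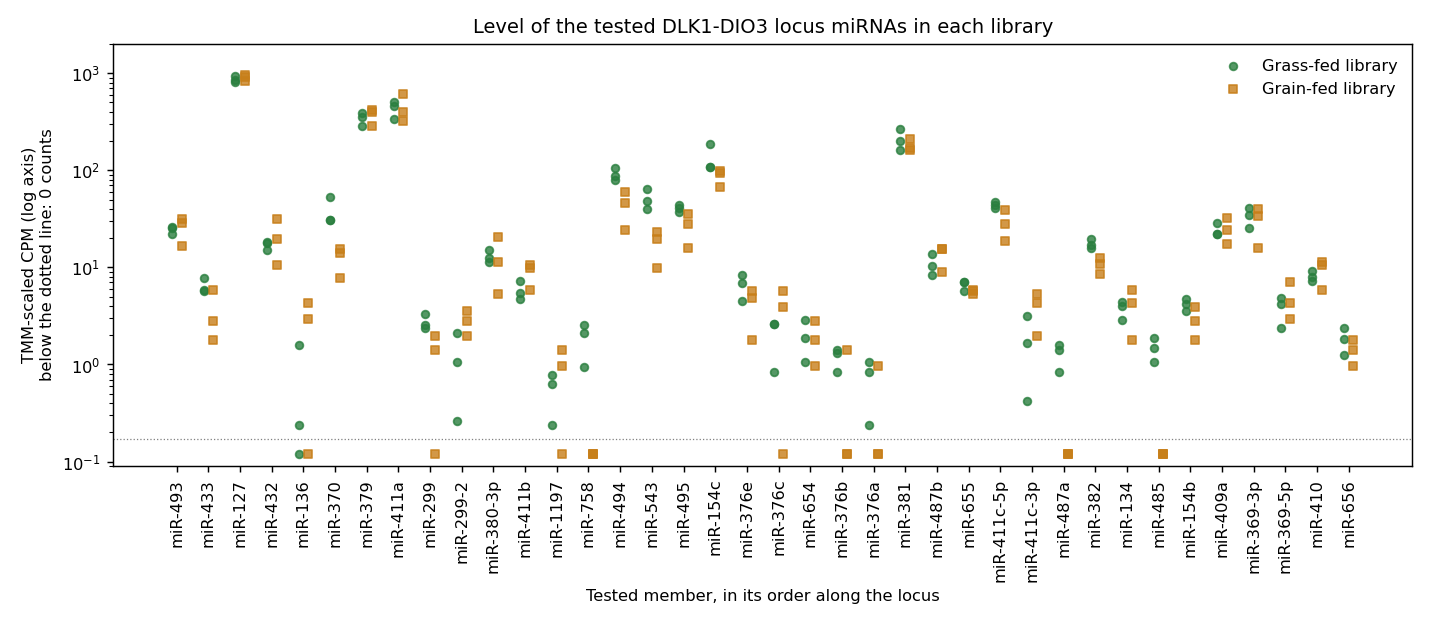
TMM-scaled CPM (log axis) of the 38 tested members in each of the 3 grass-fed (circles) and 3 grain-fed (squares) libraries, in their order along the locus, with libraries at 0 counts below the dotted line. miR-127, miR-379 and miR-411a stand above the other members, while miR-758, miR-485 and miR-487a had no count in any grain-fed library.

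Of the 38 tested members, 3 were called higher in grass-fed liver at FDR 0.1 and 0 were called lower by the edgeR quasi-likelihood test, adjusted over all 456 tested miRNAs. Among all tested miRNAs 9.43% were called higher and 9.65% lower, so the 7.89% of members called higher was near the background. At an unadjusted p below 0.05 (edgeR) there were 7 of the 38 members, each higher in grass-fed liver, against 115 of all 456 in either direction. Of the 7, 3 had no grain-fed count and passed the count filter through the grass-fed libraries alone, so their direction was set by the filter. DESeq2 called 3 members higher and 0 lower, and limma-voom called 3 higher and 1 lower. Over all 456 tested miRNAs DESeq2 called 37 higher and 50 lower, and limma-voom called 45 higher and 49 lower. The called members were bta-miR-370, bta-miR-543 and bta-miR-494.

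The CPM ranges of the diets lay apart for 11 members, each time with the grass-fed libraries higher. That is 28.9% of the tested members, beside 19.7% of all tested miRNAs. For 0 members, beside 13.2% of all tested miRNAs, the grain-fed libraries were higher throughout. Of the 11, 4 (bta-miR-299, bta-miR-485, bta-miR-487a and bta-miR-758) exceeded 2 counts in no grain-fed library and were tested only through the grass-fed libraries, so the first share rests in part on the filter. At a mean count of at least 10, 7 of 23 members and 23.0% of 313 tested miRNAs had higher grass-fed ranges.

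bta-miR-370, which in liver cells is known to repress the fatty acid oxidation enzyme CPT1A, was counted 146, 225 and 117 times in grass-fed replicates 1, 2 and 3. It was counted 8, 11 and 8 times in grain-fed replicates 1, 2 and 3. The levels were 30.7, 53.0 and 30.7 CPM against 7.79, 15.6 and 14.2 CPM, so that each grass-fed library stood above each grain-fed library. The log2 fold change was 1.68 (standard error 0.42, FDR = 0.0169, edgeR), with an interval of 0.77 to 2.59. Without grain-fed replicate 1, the lowest library, it was 1.29 and the call was lost (FDR = 0.11, edgeR).

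bta-miR-543, for which the deacetylase SIRT1 is a known target, had 189, 274 and 185 counts in the grass-fed and 24, 7 and 11 counts in the grain-fed libraries. This was 39.8, 64.6 and 48.6 CPM against 23.4, 9.91 and 19.5 CPM. The lowest grass-fed library stood above the highest grain-fed library, and grain-fed replicate 2 was the lowest of all. The log2 fold change was 1.49 (standard error 0.36, FDR = 0.0153, edgeR), with an interval of 0.70 to 2.28. Without grain-fed replicate 2 it was 1.13 and not called (FDR = 0.11, edgeR).

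bta-miR-494 had 1149 counts over the grass-fed and 105 over the grain-fed libraries. The levels were 78.5, 105 and 86.3 CPM in grass-fed replicates 1, 2 and 3, against 60.4, 24.1 and 46.1 CPM. The grain-fed values differed among themselves by more than the grass-fed values, and the groups did not overlap. The log2 fold change was 1.01 (standard error 0.31, FDR = 0.0488, edgeR), with an interval of 0.33 to 1.70. This call was the least stable of the 3. It was lost without grass-fed replicate 2 (log2 fold change 0.87) or 3 (0.96), without grain-fed replicate 2 (0.64) or 3 (1.0), and with total counts alone (0.58, FDR = 0.301, edgeR). These fits called 9 to 42 of all tested miRNAs higher.

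bta-miR-494 and bta-miR-543 lie near each other in the MIRG group, separated only by bta-miR-1193, which had no counts. The next hairpins in the row are those of bta-miR-495 and bta-miR-154c. bta-miR-495 was at 37.1, 44.1 and 40.7 CPM in grass-fed and at 35.1, 28.3 and 16.0 CPM in grain-fed libraries. bta-miR-154c was at 108, 187 and 108 CPM against 97.4, 68.0 and 94.0 CPM. For both the ranges lay apart by a small gap, and neither passed the test, with log2 fold changes of 0.55 (FDR = 0.278, edgeR) and 0.63 (FDR = 0.198, edgeR). On the other side of bta-miR-494 lie bta-miR-329a, bta-miR-758, bta-miR-323 and bta-miR-1197, with at most 24 counts each over all libraries, and farther on the abundant bta-miR-379 and bta-miR-411a, whose levels overlapped between the diets.

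**Figure D3:**
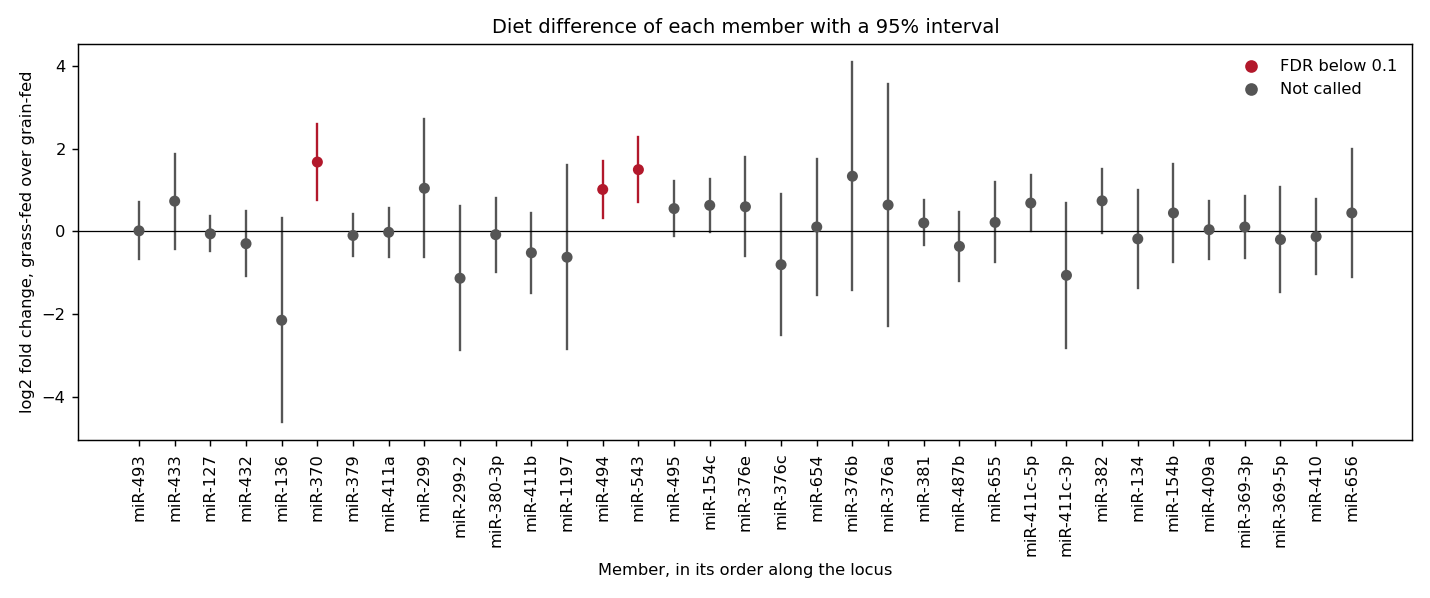
log2 fold change of grass-fed over grain-fed liver (points) with its 95% interval (bars) for the 35 tested members with a grain-fed count, in their order along the locus. The called members miR-370, miR-494 and miR-543 are at 1.68, 1.01 and 1.49, and the bars of the sparsely counted miR-376a, miR-376b and miR-136 are the widest.

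The difference within the locus could also be read without any scaling between libraries, as counts per 100 counts of bta-miR-127 in the same library. bta-miR-370 had 3.74, 6.26 and 3.29 counts per 100 in the grass-fed and 0.928, 1.64 and 1.54 in the grain-fed libraries. bta-miR-543 had 4.84, 7.62 and 5.20 against 2.78, 1.04 and 2.12, and bta-miR-494 had 9.56, 12.4 and 9.24 against 7.19, 2.53 and 5.0. For each of these the groups stayed apart. The 3 members were called from the same counts, and bta-miR-127 was at like levels in both diets on the TMM scale. The ratio thus restates the separation and is no separate support for it.

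By the same measure bta-miR-379 had 34.1 to 43.0 counts per 100 in grass-fed and 33.8 to 44.3 in grain-fed libraries, so that the ranges nearly coincided. Of the 22 other members with a mean count of at least 10, 7 had separate ranges, all higher in grass-fed libraries, and 15 overlapped. Over all 312 tested miRNAs of that count the ranges by this measure were higher in grass-fed libraries for 22.4% and in grain-fed libraries for 12.2%. When the edgeR test was scaled by the summed member counts, an alternative chosen after the values were seen, bta-miR-370 (log2 fold change 1.57, FDR = 0.0329, edgeR) and bta-miR-543 (1.37, FDR = 0.0371, edgeR) were called and bta-miR-494 (0.89, FDR = 0.134, edgeR) was not.

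**Figure D4:**
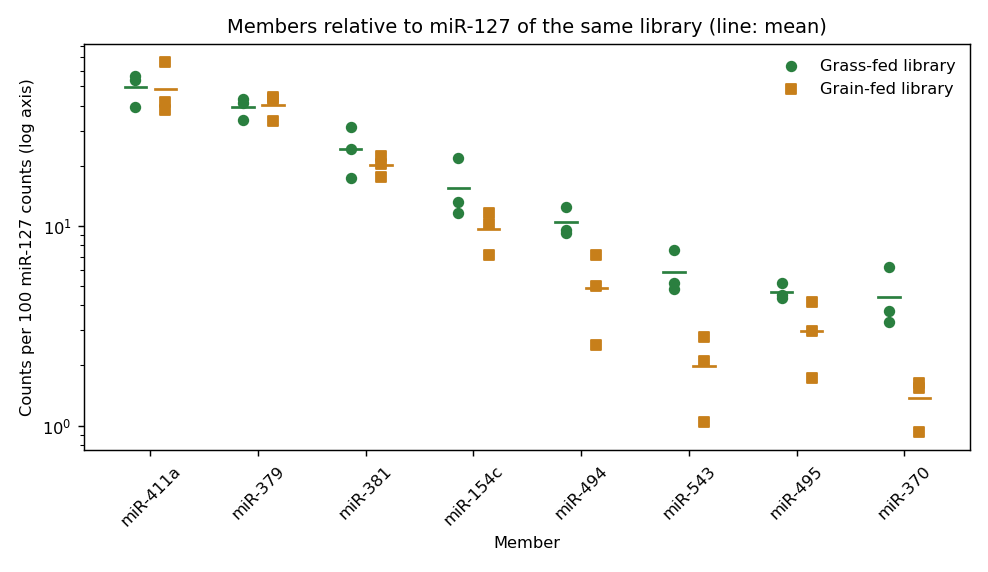
Counts per 100 counts of miR-127 in the same library (log axis) for 8 members, with each grass-fed library as a circle, each grain-fed library as a square and the mean of each diet as a line. The marks of miR-411a, miR-379 and miR-381 intermingle, whereas those of miR-494, miR-543 and miR-370 lie apart, with miR-370 at 3.29 to 6.26 in grass-fed and 0.928 to 1.64 in grain-fed libraries.

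In the RTL1 antisense group 6 of the 8 members were tested, 1 was called higher and 0 lower, and the median log2 fold change was -0.02. Over all 456 tested miRNAs 9.43% were called higher and 9.65% lower. The called member was bta-miR-370, whose hairpin lies within MEG8 and not within RTL1. bta-miR-493, the first of the row, was at 22.3 to 25.9 CPM in grass-fed and 16.6 to 31.1 CPM in grain-fed libraries (log2 fold change 0.01, interval -0.68 to 0.70). bta-miR-432 was at 14.9 to 18.1 CPM against 10.6 to 31.1 CPM, and bta-miR-433 was at 5.77 to 7.78 CPM against 1.77 to 5.84 CPM. The grain-fed ranges of these members were wider than the grass-fed ranges.

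bta-miR-136, like miR-127 directed against RTL1, had 0, 1 and 6 counts in grass-fed replicates 1, 2 and 3, against 3, 3 and 0 counts. Its log2 fold change of -2.15 was the lowest of all tested members, with an interval of -4.60 to 0.31 (FDR = 0.250, edgeR). It was called lower by limma-voom (FDR = 0.0887) and without grass-fed replicate 3 (log2 fold change -4.08, FDR = 0.0438, edgeR), which leaves 1 grass-fed count. The remaining members of this group, bta-miR-431 and bta-miR-665, had 1 and 3 counts over all libraries and were not tested.

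In the MIRG group 32 of the 48 members were tested, 2 were called higher and 0 lower, and the median log2 fold change was 0.21. The 6.25% called higher stood beside 9.43% of all tested miRNAs, and the 0 lower beside 9.65%. This median includes bta-miR-758, bta-miR-485 and bta-miR-487a, which had no grain-fed count and whose fitted values are no measure of size. It is therefore not set against the median of the RTL1 antisense group. Over all 38 members the median was 0.16, beside 0.13 over all 456 tested miRNAs. With the members without a grain-fed count set to the bound of their fold change it was 0.11. Under upper-quartile scaling the median of the members was 0.33 beside 0.31 for all miRNAs, and with total counts alone it was -0.27 beside -0.29. The median of the members thus moved with that of all miRNAs in each scaling.

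Of the 23 tested members with a mean count of at least 10, the 20 that were not called had log2 fold changes from -0.52 to 0.74. For 19 of these the 95% interval held 0. The exception was bta-miR-411c-5p, which was at 44.4, 46.7 and 40.4 CPM in grass-fed and at 18.5, 28.3 and 39.0 CPM in grain-fed libraries, with a log2 fold change of 0.68 (interval 0.01 to 1.36, FDR = 0.188, edgeR). Its lowest grass-fed and highest grain-fed library were close together. bta-miR-382, at 16.0 to 19.7 CPM against 8.49 to 12.4 CPM, had separate ranges as well (log2 fold change 0.74, FDR = 0.212, edgeR).

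Other members of this class were flat or scattered. bta-miR-409a was at 22.2 to 28.3 CPM in grass-fed and 17.5 to 31.9 CPM in grain-fed libraries. bta-miR-410, known for a part in insulin release, was at 7.16 to 9.19 CPM against 5.84 to 11.3 CPM. bta-miR-487b was at 8.42 to 13.7 CPM against 8.87 to 15.6 CPM, and bta-miR-655 was at 5.68 to 7.09 CPM against 5.32 to 5.84 CPM. In each case the grass-fed and grain-fed ranges overlapped.

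**Figure D5:**
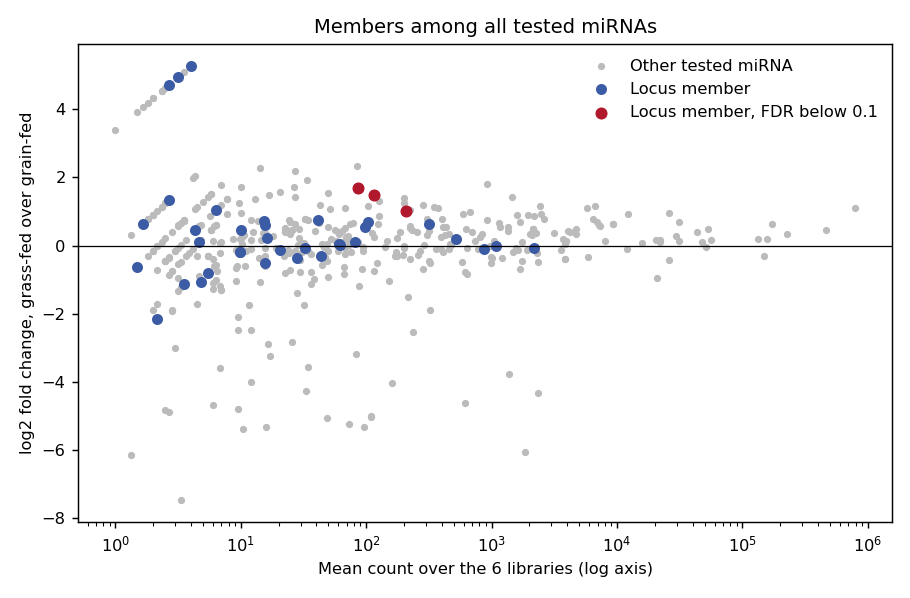
log2 fold change of grass-fed over grain-fed liver against the mean count over the 6 libraries (log axis) for the 456 tested miRNAs, with the 38 members in blue and the 3 called members in red. At a mean count of at least 10 the members run from -0.52 to 1.68 and all tested miRNAs from -6.05 to 2.35, and the members at 4.71 to 5.27 are those without a grain-fed count, whose fitted values are no measure of size.

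The sparse members could not be compared with precision. Of the tested members 21 had fewer than 10 counts in every grain-fed library, and 9 had at least 10 counts in each of the 6 libraries. bta-miR-758 had 12, 4 and 8 counts, bta-miR-485 had 7, 8 and 4 counts and bta-miR-487a had 4, 6 and 6 counts in grass-fed replicates 1, 2 and 3, and all 3 had 0 counts in each grain-fed library. At equal levels 4.31, 3.41 and 2.87 grain-fed counts in all were expected for them. They entered the test through the grass-fed libraries alone. Taking 3 counts over the grain-fed group as the floor, the lower bounds of the ratio of grass-fed to grain-fed liver were 1.44, 1.14 and 0.957 on the TMM scale. With total counts alone they were 1.06, 0.839 and 0.707. No direction is given for these members. The FDR values were 0.142, 0.147 and 0.182 in edgeR.

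Sparse members of related name were also too thinly counted to compare. bta-miR-299 had 12, 14 and 9 counts against 2, 1 and 0, and bta-miR-299-2, whose hairpin overlaps it, had 5, 9 and 1 counts against 2, 2 and 2. Their log2 fold changes were 1.04 (FDR = 0.438, edgeR) and -1.13 (FDR = 0.417, edgeR), and neither passed the test. Among the miR-376 members, known for editing of their seed in brain, bta-miR-376e was highest with 33, 19 and 32 counts against 5, 4 and 1. bta-miR-376a, bta-miR-376b and bta-miR-376c had at most 11 counts in any library, and reads of this family can fit several of its precursors.

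For 3 hairpins both arms were listed, and in each 1 arm held most of the reads in both diets. The 3p arm led for miR-369, with 420 counts against 49 of the 5p arm over the grass-fed libraries. Over the grain-fed libraries it had 72 counts against 10. The 5p arm thus held 10.4% of both arms over the grass-fed and 12.2% over the grain-fed libraries, with exact (Clopper-Pearson) 95% intervals of 7.8% to 13.6% and 6.0% to 21.3%. For miR-380 the 3p arm had 164 of 167 grass-fed and 32 of 34 grain-fed counts.

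For miR-411c the 5p arm led, with 99.1%, 96.6% and 92.8% of both arms in the grass-fed and 90.5%, 87.0% and 88.0% in the grain-fed libraries. The ranges lay apart, but the grain-fed shares rested on 2, 3 and 3 counts of the 3p arm. Their exact 95% intervals, of which the lowest began at 66.4% and the highest ended at 98.8%, covered the grass-fed shares of replicates 2 and 3. The 3p arm by itself had a log2 fold change of -1.06 (FDR = 0.442, edgeR).

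Markers of other cell types were read beside these values, and their part in the results was not tested. The hepatocyte markers miR-122, miR-192 and miR-194 summed to 364009 to 545859 CPM in grass-fed and 191657 to 253884 CPM in grain-fed libraries. miR-122 made up most of each sum. Of the 3 tested entries, 2 were called higher, miR-122 (log2 fold change 1.12, FDR = 0.0042, edgeR) and miR-192 (0.65, FDR = 0.0286, edgeR). The value for miR-194 went the other way (-0.43, FDR = 0.300, edgeR). Of the 6 markers of stellate cells and smooth muscle, miR-143, miR-145, miR-199a, miR-199b and miR-214, 3 were called higher, and their sums of 80073 to 116234 and 74020 to 86764 CPM overlapped. Of 2 endothelial, 5 leukocyte, 3 erythroid, 1 neural and 3 skeletal muscle entries tested, 0 passed FDR 0.1 in edgeR. The neural marker miR-124 had 1 count for each of its 2 entries over all libraries, and miR-9 made up nearly all of the neural sum.

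Among miRNAs of other imprinted loci, 4 entries were tested. bta-miR-296-3p of the GNAS locus was called higher, with 82, 82 and 31 counts against 4, 4 and 1 (log2 fold change 1.93, FDR = 0.0479, edgeR). bta-miR-296-5p, bta-miR-335 of the MEST locus and bta-miR-483 of the IGF2 locus did not pass the test, with log2 fold changes of 0.56, -0.23 and 0.28.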

How the data were processed

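Liver small RNA of 6 steers was sequenced by the authors, who removed adapters and low-quality reads and kept reads of 17 to 25 nt. After mapping to ARS-UCD1.2 they counted known miRNAs of miRBase 22.0 with miRDeep2. The version of miRDeep2 is not given in the sources used here. Per the labels FastQC version 0.11.5 and Trimmomatic version 0.36 were also used. The paper names Trimmomatic for its RNA-seq reads and not for the small RNA reads. The deposited counts are unnormalized reads for 1207 pairs of miRNA and precursor, and the deposited CPM, which divides each count by their sum, was not used. The largest count over precursors was taken per miRNA. Those exceeding 2 counts in 2 or more libraries were scaled by TMM and tested in edgeR (version 4.0.16, R version 4.3.3) by its quasi-likelihood method, with Benjamini-Hochberg adjustment over all 456 and FDR 0.1. Standard errors and intervals come from the F statistic and its degrees of freedom. The fit was also run on simulated counts, as a check of the procedure that bears on no call made here. Alternatives were DESeq2 version 1.42.0, limma-voom (limma version 3.58.1), other scalings and filters, summed precursors, a replicate block and each library left out. Members and lists were chosen with earlier results of these data known. Values are named for called members, the 10 highest, the 3 largest and 3 smallest log2 fold changes, members without counts in 1 diet and other arms of called members, and further ones are given as ranges or because they neighbour these. Replicates are separate animals. Intervals cover counting error only where they rest on counts alone. Mature sequences were not used here, so members were not grouped by seed. For 3 libraries against 3 an exact permutation p cannot fall below 0.1, and none was computed.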

Additional observations from a re-analysis of the deposited data

How the results depend on the processing

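The number of members called higher was 3, and 7 with upper-quartile normalization, where bta-miR-154c, bta-miR-382, bta-miR-411c-5p and bta-miR-485 were added and 82 of all 456 miRNAs were called higher. It was 2 with total counts alone (9 of all 456) and 2 when scaled by the summed member counts (26 of all 456). Dropping single libraries gave 1 to 3, the 1 without grain-fed replicate 2. That fit called 13 of all tested miRNAs higher, and the other fits with a library left out called 24 to 42. The number called lower was 0 (44 of all 456), and 1 with limma-voom (49 of all 456). Dropping single libraries gave 0 to 1, the 1 without grass-fed replicate 3 (44 of all 439). The member called lower was bta-miR-136 in both cases. The median log2 fold change of the members was 0.33 with upper-quartile normalization, 0.081 with RLE size factors, -0.27 with total counts alone, 0.048 with at least 1 count in 2 libraries, 0.029 with at least 10 counts in 2 libraries, 0.0077 with filterByExpr, 0.045 with limma-voom, 0.050 when scaled by the summed member counts, and 0.032 to 0.24 with each library left out. With each library left out the median over all tested miRNAs ran from 0.043 to 0.12. Without grass-fed replicate 1 the members were at 0.24 beside 0.043 for all miRNAs. Without grass-fed replicate 3 the members were at 0.032 beside 0.088. The log2 ratio of the summed level was 0.28 with upper-quartile normalization, -0.32 with total counts alone and -0.042 to 0.11 with each library left out. Signs turned for bta-miR-127 (0.14), bta-miR-411a (0.20) and bta-miR-379 (0.11) with upper-quartile normalization, for bta-miR-381 (-0.24) and bta-miR-369-3p (-0.30) with total counts alone, for bta-miR-411a with limma-voom (0.021) and for bta-miR-369-3p when scaled by the summed member counts (-0.017). With each library left out, log2 fold changes ran from -0.26 to 0.25 for bta-miR-411a, -0.31 to 0.013 for bta-miR-379, -0.013 to 0.26 for bta-miR-381 and -0.17 to 0.24 for bta-miR-369-3p. With total counts alone bta-miR-127, bta-miR-411a and bta-miR-379 were at -0.46, -0.40 and -0.48. The cause of these shifts was not tested. bta-miR-370 and bta-miR-543 each kept the call in 17 of 18 alternatives, and bta-miR-494 in 12 of 18. The labels give both diets the same replicate numbers, but the numbers did not pair the libraries, with correlations of deviations of -0.05, -0.20 and -0.01. With the replicate number as a block, 3 members were called higher, 0 lower, and the median was 0.14. Over all 456 miRNAs that fit called 39 higher and 43 lower.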

Other observations

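In the stretch of the locus, RefSeq also places hairpins that the naming rule leaves out. Of these bta-miR-3956 had 6, 7 and 6 counts in grass-fed replicates 1, 2 and 3 against 1, 2 and 1 counts, bta-miR-3957 had at most 2 counts in any library, bta-miR-668-3p had 1 count in all, and bta-miR-453 and bta-miR-3578 had none. bta-miR-1247, beside DIO3, had 5 counts of its 5p arm and 2 of its 3p arm over all libraries.

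Over the 23 members with a mean count of at least 10, the median deviation of log2(CPM + 2) from the diet mean came to -0.12, 0.073 and 0.0060 for the grass-fed libraries, against 0.044, 0.073 and 0.14 for the grain-fed ones. Over the 290 other miRNAs of that count it lay between -0.097 and 0.099. Of the 23 members 6, 15 and 12 were above their diet mean in grass-fed replicates 1, 2 and 3, beside 151, 178 and 101 of the 290 others. For the grain-fed replicates it was 13, 17 and 13 members beside 157, 137 and 152 others.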
